A study of Mus musculus with 5 samples.

Results

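EphB receptors and their ephrin-B ligands were measured in newborn mice, at postnatal day 0, in the part of the thalamus that relays the input of the retina, the dorsal lateral geniculate nucleus (dLGN). The genes examined were the receptor genes Ephb1, Ephb3, Ephb4 and Ephb6 and the ligand genes Efnb1, Efnb2 and Efnb3, and every probe set that the platform annotation gives to 1 of these 7 symbols was taken. This gave 12 of 45037 probe sets, with 1 probe set each for Ephb1, Ephb3, Ephb4, Ephb6 and Efnb3, 3 for Efnb1 and 4 for Efnb2. Further genes of the class were not analysed here. The tissue came from Sema6A knockout mice (Sema6A-/-), 2 arrays, and from heterozygous mice that kept 1 working copy of Sema6A and served as the control, 3 arrays. All mice were on a C57BL/6 background, no wild-type array was used here, and the mutation itself is not described in the labels. Each array holds nuclei pooled from pups of several litters, so its value is the mean of a pool and the p-values measure the spread between pools.

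Eph receptors are tyrosine kinases of the cell surface. The B-class ephrins span the membrane, so when a receptor on 1 cell meets a ligand on another, signals pass into both cells, forward through the receptor and in reverse through the ligand's cytoplasmic tail, which ends in a motif bound by PDZ proteins. The response is often repulsion of a growth cone, and in mice these genes are known from the choice of retinal axons at the optic chiasm, from the guidance of thalamic axons to the cortex and from the assembly of excitatory synapses. Sema6A, the transmembrane semaphorin missing in the knockout, belongs to another guidance family that signals through plexins.

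Of the 7 genes, 3 read higher in each knockout pool than in any control pool at their brightest probe set, against 15.8% of genes. Ephb1 did so by 1.86-fold and Efnb2 by 1.75-fold, about the same factor, and Efnb3 by 1.14-fold. At 2 of the 4 Efnb2 probe sets, both below the median level of the arrays, the groups overlapped. None of the 3 genes passed an adjusted p of 0.05 over all probe sets in limma, a linear model that borrows variance information across probe sets. Apart from Ephb1 and Efnb2, the genes differed by at most 0.19 on the log2 scale, in either direction, at their brightest probe sets. The adjusted threshold was passed in limma by 0 of the 12 probe sets, against 0.0733% of all probe sets. A probe set with an unadjusted p under 0.05 is called nominally higher or lower below. Nominally, 3 of the 12 were higher and 0 lower in the knockout, where 5.16% of all probe sets were higher and 5.99% lower. The knockout and control arrays did not overlap for 4 of the 12, each higher in the knockout, where 12.9% of all probe sets were non-overlapping and higher.

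**Figure D1:**
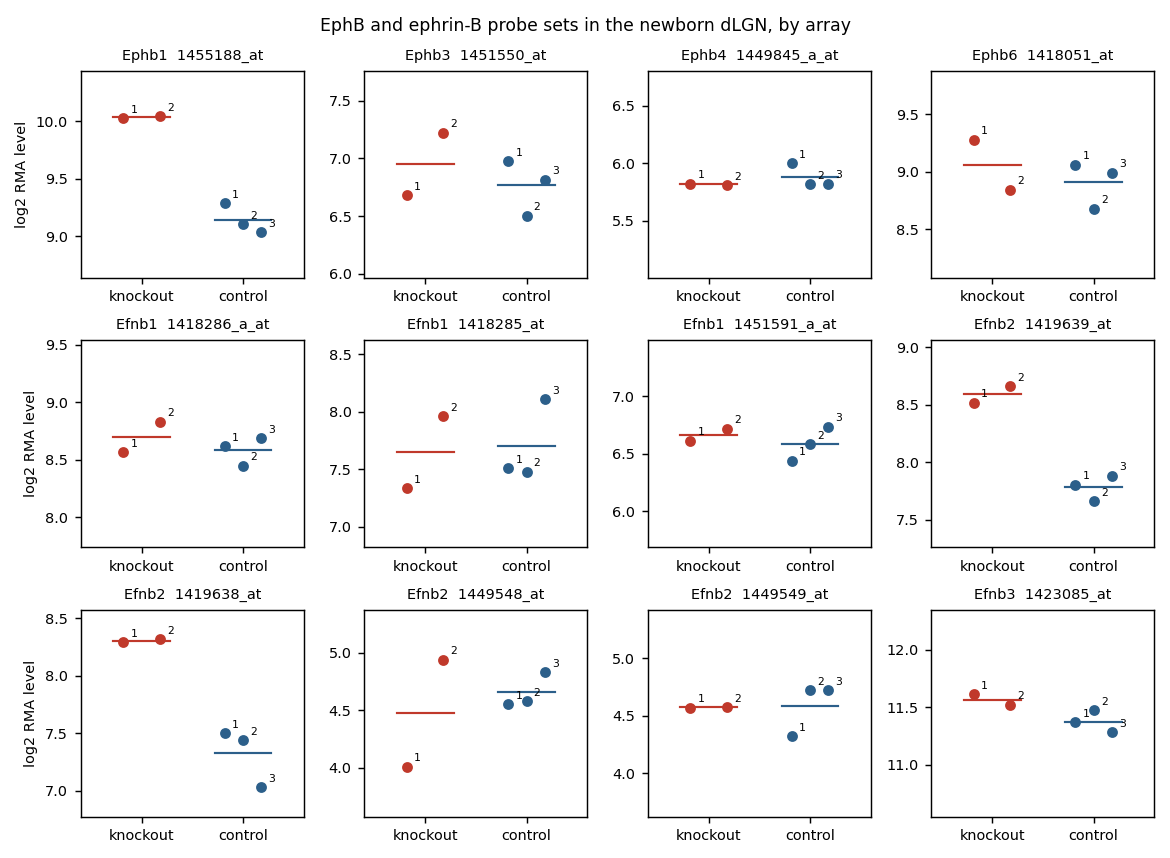
Log2 RMA level (vertical axis, each panel spanning the same range of log2 units) of the 12 EphB and ephrin-B probe sets in the 2 knockout and 3 control arrays, with replicate numbers beside the points and group means as lines. Ephb1 and the brighter pair of Efnb2 probe sets lie higher in both knockout arrays than in every control array, as does Efnb3 by a smaller margin (0.05 for the closest pair).

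Some libraries stood apart, and the targeted gene was checked first. Sema6a itself read 7.81 and 7.85 in the knockout, against 10.47, 10.65 and 10.39 in the control, at its brightest probe set (log2 fold change -2.68, limma adjusted p = 0.0236). Markers of relay neurons were present in all arrays, with 9 of 9 measured genes at or above the median level of the arrays, 6.41. Their levels were not even across arrays. Slc6a4 read 7.98 in knockout replicate 1, against 10.60 in knockout replicate 2 and 10.60 to 10.85 in the control. Gbx2 ran from 6.95 in control replicate 1 to 11.22 in knockout replicate 2. Knockout replicate 1 stood apart in markers of GABAergic and prethalamic cells, whose median lay 2.69 above the control mean in that array and 0.25 above it in replicate 2. It also had the largest excess of the 3′ over the 5′ control probe set of Gapdh, a sign of RNA degradation or of short amplification products, at 2.34, against 0.96 in knockout replicate 2 and 0.77 to 1.33 in the control. Control replicate 3 stood apart in markers of meninges, with a mean level of 7.55 over that list, the highest of the 5 arrays. Xist, the RNA of the inactive X chromosome, read 4.10 in knockout replicate 2, against 11.50 in knockout replicate 1 and 10.79 to 11.54 in the control, and the labels give no sex for the pups.

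Among the receptors, Ephb1 is known in mice from retinal axons that stay on their own side of the brain and from thalamic axons on their way to the cortex. Its probe set 1455188_at read 10.02 and 10.05 in the knockout pools, against 9.29, 9.11 and 9.03 in the control pools. Both knockout values lie well above the highest control value, and the 2 knockout pools differ from each other by 0.02, against 0.25 between the lowest and highest control pool. Knockout pools averaged 10.04 ± 0.02 (SD, n = 2) and control pools 9.14 ± 0.13 (SD, n = 3). This is a log2 fold change of 0.89 (standard error 0.12), with 95% limits of 0.59 and 1.20. The unadjusted limma p of 0.000479 ranked 187 among the 45037 probe sets, and the adjusted p was 0.115. An exact two-sided permutation test over the 5 arrays gave p = 0.1, the smallest that 2 arrays against 3 allow. When each gene was instead represented by the mean of its probe sets, limma tested 18193 genes and Ephb1 passed with an adjusted p of 0.0456. It was the only 1 of the 7 genes to do so, where 0.352% of genes passed and were higher. Ephb1 has 1 probe set, so its values and its log2 fold change of 0.89 were the same in both fits. What changed was the number of tests and the variance information borrowed from other genes. In bulk tissue such as this, more cells that express a gene and more RNA in each cell cannot be told apart.

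Ephb1 lies on chromosome 9 from 101922128 to 102354693 in the GRCm38.p6 annotation, and Efnb2 on chromosome 8 from 8617235 to 8661242. The promoter windows of these genes are shown because they are the members whose 95% limits lie above 0. Each runs from 250 bases before to 50 bases after the annotated start, 5′ to 3′ on the gene's strand, as RefSeq gives it on GRCm38.p6. Capitals mark matches, on either strand, to the letters TATAAA (a core promoter element bound by the general transcription machinery), GGGCGG (GC box), CTTTGA (bound by the TCF/LEF factors of Wnt signalling) and TGGGAA (bound by RBPJ, the DNA-binding partner of Notch), none of which overlap each other in these windows.
Ephb1, minus strand, chr9:102354644-102354943: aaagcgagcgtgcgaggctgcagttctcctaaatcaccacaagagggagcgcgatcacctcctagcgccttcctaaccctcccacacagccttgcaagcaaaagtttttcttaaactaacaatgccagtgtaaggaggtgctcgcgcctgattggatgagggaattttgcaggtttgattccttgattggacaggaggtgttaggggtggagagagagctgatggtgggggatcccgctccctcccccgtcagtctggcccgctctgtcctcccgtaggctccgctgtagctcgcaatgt
Efnb2, minus strand, chr8:8661193-8661492: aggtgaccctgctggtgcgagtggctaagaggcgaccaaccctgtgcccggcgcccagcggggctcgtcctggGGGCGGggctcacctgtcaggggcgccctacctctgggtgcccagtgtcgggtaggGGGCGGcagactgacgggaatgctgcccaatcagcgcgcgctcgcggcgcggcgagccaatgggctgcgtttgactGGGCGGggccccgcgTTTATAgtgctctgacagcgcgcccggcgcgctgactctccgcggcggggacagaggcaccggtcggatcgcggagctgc

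The windows differ in composition. The Ephb1 window holds 14 CpG dinucleotides, has a GC content of 55.7% and has no match to any of the 4 motifs. The Efnb2 window holds 35 CpG dinucleotides at a GC content of 72.3%, with 3 GC boxes on the gene's own strand and a match to the TATAAA letters on the opposite strand whose first letter lies at -30 from the start. Over 32851 promoter windows of 300 bases in the same table, the median was 7 CpG dinucleotides, and 13.6% held the TATAAA letters, 35.7% the GC box, 16.0% the TCF/LEF letters and 25.6% the RBPJ letters. Windows were found for 6 of the 7 genes, all but Efnb3. In these 6, the TCF/LEF letters occurred in 0, and the RBPJ letters occurred in the Efnb1 window with 2 matches.

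Ephb3 is a receptor that acts with other B-class receptors in the crossing of commissural axons. It read 6.68 and 7.22 in the knockout, against 6.97, 6.50 and 6.82 in the control. The groups overlap, with the knockout pools at either end of the control pools, and the log2 fold change of 0.19 had 95% limits of -0.37 and 0.74 (limma adjusted p = 0.790). Without knockout replicate 2 it was -0.08, and changes of up to 1.67-fold upward lie within the limits with all arrays.

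Ephb6 encodes a receptor whose kinase domain is inactive and which signals through partners. It read 9.28 and 8.84 in the knockout, against 9.06, 8.68 and 8.99 in the control, so that knockout replicate 1 was the highest and replicate 2 lay inside the control range. The log2 fold change was 0.15 with limits of -0.33 and 0.63 (limma adjusted p = 0.805). Without knockout replicate 1 it was -0.07.

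Ephb4, known as the receptor of venous endothelium that pairs with ephrin-B2 of arteries, lay below the median level of the arrays in both groups. It read 5.83 and 5.81 in the knockout, against 6.00, 5.82 and 5.83 in the control. The values in 4 of the 5 arrays lie within 0.02 of each other, and the log2 fold change was -0.06 with limits of -0.35 and 0.22 (limma adjusted p = 0.866). RMA, the method that made these values, compresses differences at such low levels.

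Among the ligands, Efnb2 encodes ephrin-B2, which in mice marks arterial endothelium and, at the optic chiasm, the midline glia that turn back Ephb1-bearing retinal axons. Its brightest probe set, 1419639_at, read 8.52 and 8.66 in the knockout, against 7.80, 7.66 and 7.88 in the control. The next, 1419638_at, read 8.29 and 8.31 in the knockout, against 7.50, 7.44 and 7.03 in the control. At both probe sets each knockout pool lies above each control pool. At the brightest, knockout pools averaged 8.59 ± 0.10 (SD, n = 2) and control pools 7.78 ± 0.11 (SD, n = 3). Its log2 fold change was 0.81 (standard error 0.12) with 95% limits of 0.50 and 1.12 (limma adjusted p = 0.131). The other gave 0.98 with limits of 0.55 and 1.41, a 1.97-fold difference (limma adjusted p = 0.161). In each case the exact permutation p was 0.1.

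The 2 further probe sets of Efnb2 did not show this difference. Probe set 1449548_at read 4.01 and 4.94 in the knockout, against 4.55, 4.58 and 4.83 in the control, and 1449549_at read 4.57 in both knockout pools, against 4.32, 4.72 and 4.72 in the control. Both lie below the median level in each group, and in both the groups overlap. The log2 fold changes were -0.18 with limits of -0.90 and 0.54, and -0.02 with limits of -0.42 and 0.39. The upper limit of 1449549_at lies below the lower limit of the brightest probe set, 0.50. RMA compresses differences at levels as low as that of 1449549_at, so these limits cannot show whether the probe sets disagree. With the mean of the 4 probe sets the gene's log2 fold change was 0.40 (limma adjusted p = 0.250). All 4 carry the same sequence accession in the platform annotation, and which part of the transcript each reads was not tested.

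Efnb3 encodes ephrin-B3, known in mice as the midline barrier of the spinal cord for corticospinal axons. It read 11.61 and 11.52 in the knockout, against 11.37, 11.48 and 11.29 in the control. Both knockout values exceed each control value, by 0.05 for the closest pair. The log2 fold change was 0.19 with limits of -0.10 and 0.48 (limma adjusted p = 0.601), so this gene did not differ beyond the spread between pools although the groups do not overlap.

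Efnb1, the X-linked ligand gene, had 3 probe sets at or above the median level. The brightest, 1418286_a_at, read 8.57 and 8.83 in the knockout, against 8.62, 8.45 and 8.69 in the control. Probe set 1418285_at read 7.34 and 7.96 in the knockout, against 7.51, 7.48 and 8.11 in the control, and 1451591_a_at read 6.61 and 6.72 in the knockout, against 6.44, 6.58 and 6.74 in the control. The groups overlap at all 3, and at each of them knockout replicate 2, the pool with little Xist RNA, read higher than knockout replicate 1. Whether the sex of the pups has a part in this was not tested. The log2 fold changes were 0.11, -0.05 and 0.08, and the widest limits, those of 1418285_at, were -0.74 and 0.65 (limma adjusted p = 0.802, 0.964 and 0.853).

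**Figure D2:**
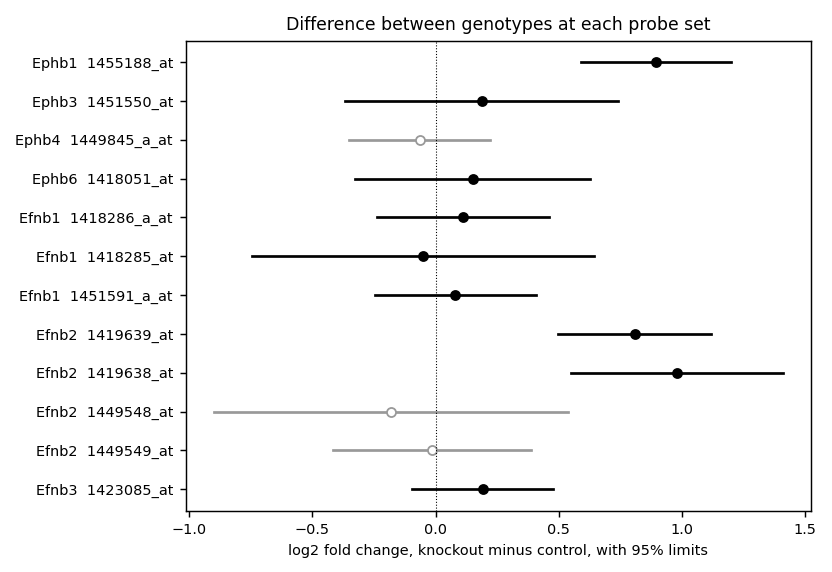
Log2 fold change of the knockout over the control (horizontal axis) with 95% limits from limma for each of the 12 probe sets, filled where the probe set reached the median level in at least 1 group and open where it did not. The limits of Ephb1 (0.59 to 1.20) and of 2 Efnb2 probe sets (0.50 to 1.12 and 0.55 to 1.41) lie above 0, and those of the other 9 probe sets include it.

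The higher readings of Ephb1 and Efnb2 did not rest on a single pool. Leaving out each array in turn gave log2 fold changes of 0.84 to 0.96 for Ephb1, 0.74 to 0.88 for Efnb2 at its brightest probe set and 0.83 to 1.07 at the next. Without knockout replicate 1, the pool with high GABAergic markers, the values were 0.90 for Ephb1 and 0.88 for Efnb2. None of these left-out fits passed the adjusted threshold for either gene.

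The courses of Ephb1 and Efnb2 over the arrays were compared because these were the 2 members of largest change, so a like shift between the groups was given beforehand. After subtracting each gene's own mean, the values of Ephb1 and Efnb2 differed on average by 0.10 over the 5 arrays, and of 11256 other genes at or above the median level 16 lay closer to Ephb1 than Efnb2 did. The 3 closest to Ephb1 were Zbtb18, which encodes a transcriptional repressor of developing neurons, Plekhb1, and Kcnd2, a potassium channel gene, with mean absolute differences of 0.04, 0.06 and 0.06. The 3 closest to Efnb2 were Trbv1, Prkg1, which encodes a kinase activated by cyclic GMP, and Renbp, at 0.03, 0.05 and 0.05. Zbtb18 read 11.24 and 11.08 in the knockout, against 10.40, 10.21 and 10.15 in the control, and Prkg1 read 8.81 and 8.86 in the knockout, against 8.13, 8.01 and 8.25 in the control. The Trbv1 probe set is of a type whose probes can also match other transcripts. With 5 arrays in 2 groups, such closeness mostly says that a gene differs between the groups by the same amount. Within the control the order differed, with replicate 3 the lowest for Ephb1, at 9.03, and the highest for Efnb2, at 7.88.

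**Figure D3:**
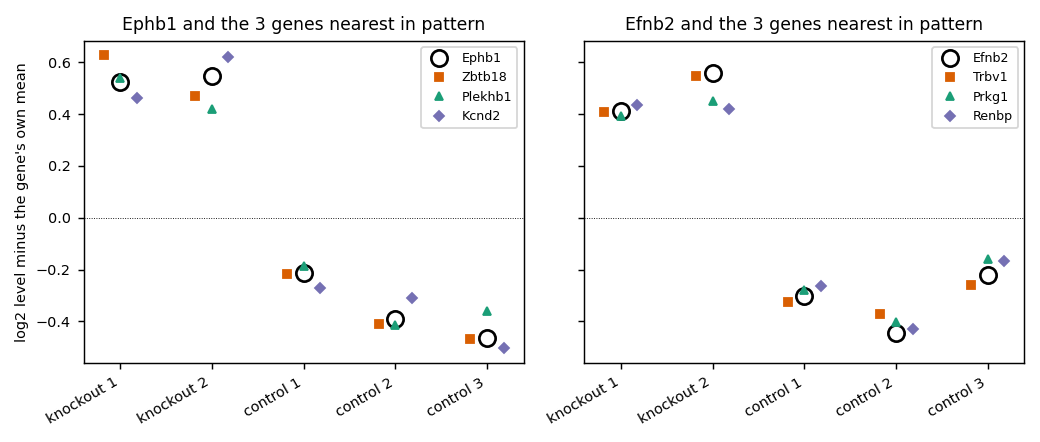
Log2 level minus the gene's own mean over the 5 arrays (vertical axis) for Ephb1 and Efnb2 (open circles) and for the 3 genes nearest to each in pattern (filled symbols), by array. Knockout values lie above 0 and control values below it for all 8 genes, and mean absolute differences from the circles are 0.03 to 0.06.

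The other genes of Eph and ephrin signalling were taken as lists, with each gene at its brightest probe set. Over all 18193 genes the median log2 fold change was 0.01, 0.104% of genes passed the adjusted threshold, and 6.90% were nominally higher and 4.90% nominally lower. The 7 EphB and ephrin-B genes had a median of 0.19, with 2 nominally higher and 0 nominally lower. Of the 14 genes of EphA receptors and ephrin-A ligands, 0 were nominally higher and 2 nominally lower, with a median of -0.16, and 0 passed the adjusted threshold in limma. The lower genes were Epha7, with 10.36 and 10.19 in the knockout against 10.85, 10.86 and 10.95 in the control, and Epha8 at a log2 fold change of -0.49. Efna1 gave -0.29. The difference between the A and B classes was not tested.

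Genes that act on the receptor side, the kinases, adaptors and exchange factors of forward signalling, had a median of 0.03 over 23 measured genes. The adjusted threshold was passed by 0 of them in limma. Nominally, 4 were higher and 1 lower, against 6.90% and 4.90% of all genes. Tiam1, an exchange factor for Rac that B-class receptors recruit, read 10.62 and 10.63 in the knockout, against 9.82, 9.97 and 9.96 in the control, a log2 fold change of 0.71 (limma adjusted p = 0.133). Sdc2, a syndecan of dendritic spines that B-class receptors phosphorylate, differed by 0.71 and Ngef, which encodes the exchange factor ephexin, by 0.94, with non-overlapping groups in both. Rhoa, the GTPase of growth cone collapse, differed by 0.61, and Rasa1, a GTPase-activating protein for Ras that binds activated EphB receptors, by -0.34.

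Genes on the ligand side, which bind the ephrin-B tail or carry the reverse signal, had a median of 0.12 over 11 measured genes. Nominally, 4 were higher and 0 lower, against 6.90% and 4.90% of all genes, and 0 were past the adjusted threshold in limma. Stat3, a transcription factor reported downstream of ephrin-B1, read 8.67 and 8.50 in the knockout, against 8.15, 8.12 and 8.16 in the control, a log2 fold change of 0.44. Grip2, a PDZ scaffold that binds the ephrin-B tail, differed by 0.40, and Sdcbp, which encodes the PDZ protein syntenin, by 0.315. In the other direction, 3 of the 11 genes were lower in each knockout pool than in any control pool, as were 2534 of all 18193 genes. These were Grip1 at -0.27, Pick1 at -0.18 and Git1 at -0.26. Pdzrn3, a PDZ-domain ubiquitin ligase, gave the largest value of the list, 1.49, but its knockout pools lay far apart, at 8.95 and 10.49, against 7.81, 8.54 and 8.33 in the control. Of 7 measured genes of cleavage and turnover, 0 differed nominally or past the adjusted threshold in limma, and their log2 fold changes lay between 0.05 and 0.37. Among these, the values were 0.37 for Cblb, a ubiquitin ligase, 0.17 for Ptpro, a phosphatase that acts on Eph receptors, and 0.26 for the metalloproteinase gene Mmp9.

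**Figure D4:**
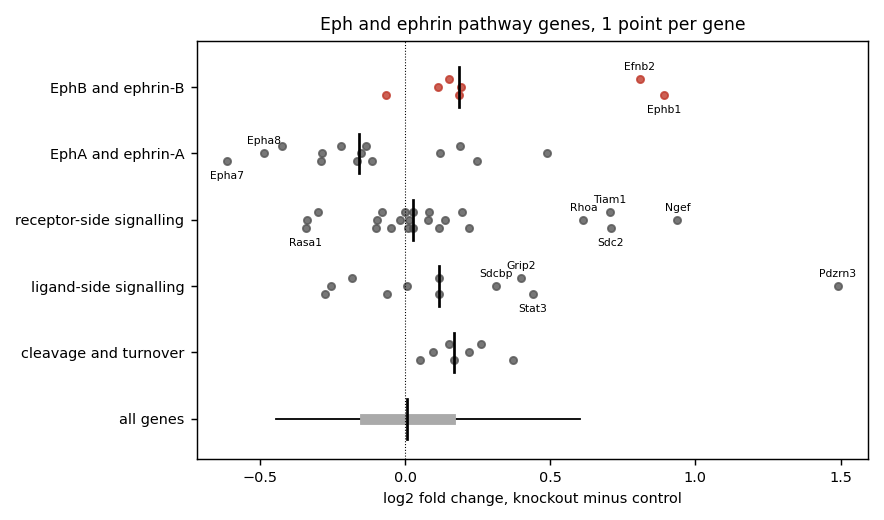
Log2 fold change of the knockout over the control (horizontal axis), 1 point per gene, for 5 lists of Eph and ephrin genes, with list medians as bars and names beside genes that differed nominally (unadjusted p under 0.05). The bottom row gives all 18193 genes as the median (0.01), the middle range from the 25th to the 75th percentile (-0.14 to 0.16) and the range from the 5th to the 95th (-0.45 to 0.60), and Ephb1 and Efnb2 lie beyond the last of these.

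Markers of other cells moved with the genotype in part. All 14 measured microglia markers read higher in each knockout pool than in any control pool, against 15.8% of genes. Of these, 4 rose past the adjusted threshold, among them Tyrobp, Lyz2 and Ly86, as did 16 of all 18193 genes. The markers were listed with earlier results of these data known. The mean log2 level over that list was 9.06 and 8.91 in the knockout pools, against 7.04 to 7.12 in the control pools. The part of microglia in the readings of Ephb1 and Efnb2 was not tested. Of the 12 measured GABAergic and prethalamic markers, 6 were higher in both knockout pools than in any control pool, against 15.8% of genes. Of the 12, 4 lay below the median level in both groups. The mean level over the list was 8.76 and 6.12 in the knockout against 5.64 to 6.08 in the control. Isl1 read 9.12 and 4.59 in the knockout, against 2.87, 3.94 and 3.68 in the control. The log2 fold changes of the neuropeptide genes Npy and Sst were 2.42 and 2.06. In knockout replicates 1 and 2, Npy read 10.85 and 8.01 and Sst 10.33 and 7.47. Ephb1 and Efnb2 differed by 0.02 and 0.15 between the same 2 knockout pools. The part of GABAergic and prethalamic cells in their readings was not tested.

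Because ephrin-B2 and EphB4 are known from blood vessels, endothelial and pericyte markers were set beside them. Of 18 measured genes, 5 were nominally higher and 0 nominally lower, against 6.90% and 4.90% of all genes. The adjusted threshold in limma was passed by 0 of them, and the median log2 fold change was 0.13. The mean level over the list was 8.28 and 8.35 in the knockout, against 7.92 to 8.31 in the control, so the groups overlap. Sox17, a transcription factor of arterial endothelium, read 8.34 and 7.96 in the knockout, against 7.50, 7.38 and 7.69 in the control, a log2 fold change of 0.63 (limma adjusted p = 0.298). Abcc9, a pericyte gene, differed by 0.65 and Esam, an endothelial adhesion gene, by 0.41. The list was not uniform, and 11 of the 18 had a log2 fold change above 0. Gja4 gave -0.12, Gja5 -0.06 and Bmx 0.13, with Gja5 and Bmx below the median level in both groups. Pdgfrb gave -0.15, Rgs5 -0.24 and Kcnj8 0.52. The part of vessels in the reading of Efnb2 was not tested.

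Of 8 measured oligodendrocyte lineage markers, 6 were higher in each knockout pool than in any control pool, against 15.8% of genes. In the same sense 1 was lower in both knockout pools, as were 2534 of all 18193 genes. Mean levels over the list were 9.78 and 9.85 in the knockout and 9.42 to 9.50 in the control. Sox10, the transcription factor of the lineage, differed by 0.83 and the myelin gene Mbp by 1.55, both higher in the knockout. The myelin adhesion gene Mag went the other way, with 6.08 and 5.68 in the knockout against 6.93, 6.47 and 7.01 in the control (log2 fold change -0.92, limma adjusted p = 0.254). Radial glia and astrocyte markers had a median of 0.08, with mean levels of 10.18 and 9.98 in the knockout and 9.88 to 10.30 in the control. Hes1, a Notch target of radial glia, was lower by 0.75 in the knockout on the log2 scale (log2 fold change -0.75, limma adjusted p = 0.248), while Slc1a3 and Fabp7 gave 0.17 and 0.09. Markers of the cortex, of meninges and of red cells had medians of 0.22, -0.48 and -0.37, with 5, 9 and 4 measured genes, and 0 of them passed the adjusted threshold in limma. Nominally, 1 cortical gene was higher, 1 meningeal gene lower and 1 erythroid gene lower, where 6.90% of all genes were higher and 4.90% lower. Bcl11b, a cortical transcription factor, gave 1.58 and Tbr1 -0.52, and the globin gene Hba-a2 gave -0.29. Control replicate 3 stood apart in the meningeal list, whose median lay 0.78 above the control mean in that array, against -0.30 and -0.49 in the knockout pools and -0.22 and -0.58 in the other control pools. The collagen gene Col1a1 read 7.17 and 8.52 in the knockout, against 9.79, 9.03 and 10.57 in the control, and Igf2 and Foxc1 gave 0.22 and 0.20. Relay neuron markers had a median of 0.20, with 1 nominally higher and 1 nominally lower. Foxp2 gave 0.48, Lhx2 0.63 and Rora -0.36.

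**Figure D5:**
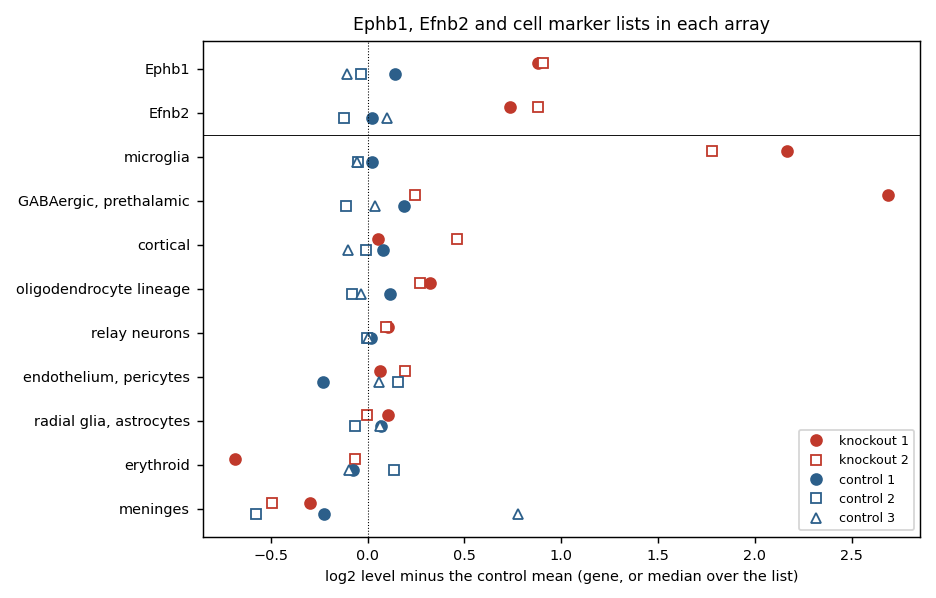
Log2 level minus the control mean (horizontal axis) of Ephb1 and Efnb2 at their brightest probe sets, above the line, and the median of the same quantity over each list of cell markers, below it, for the 2 knockout arrays (red) and the 3 control arrays (blue). Both knockout arrays lie far to the right for the genes Ephb1 and Efnb2 and for microglia, and only knockout replicate 1 does so for GABAergic and prethalamic markers (2.69, against 0.25 in replicate 2).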

How the data were processed

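The authors deposited log2 expression values per probe set of an Affymetrix mouse array, and the submitters' processing notes name RMA, with no version or settings given in the sources used here. RMA corrects background, gives all arrays the same distribution and summarises the probes of each set, so it would hide a shift common to most genes. Per the labels' protocols, the RNA was amplified before labelling. Genotypes came from the sample titles. Without 64 array control probe sets 45037 were left, of which 34945 have 1 gene symbol, 932 several and 9160 none, and those with 1 were named.

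Genotypes were compared in limma 3.58.1 under R 4.3.3 (lmFit, eBayes, two-sided), and p-values were adjusted over the 45037 probe sets by Benjamini-Hochberg. The fit was also run on simulated data with independent noise of equal spread in all arrays. These held no shared differences between pools, so that run does not bear on such differences here. The number of arrays limits the precision. Members and lists were chosen with earlier results of these data known. Named genes were every member, Sema6a, the 3 genes of smallest p in each list that reached the median level of 6.41, and the 3 genes nearest in pattern to the 2 members of largest change. Rhoa, Rasa1, Sdcbp, Grip1, Pick1, Git1, Slc6a4, Gbx2, Gja4, Gja5, Bmx, Pdgfrb, Rgs5 and Kcnj8 were named after their values were seen. Of the listed genes, 11 had no probe set of their own.

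Alternatives were a replicate block, quantile normalisation once more, median centring, dropping dim probe sets, other variance priors, array weights, a looser threshold, averaging a gene's probe sets, and each array left out.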

Additional observations from a re-analysis of the deposited data

How the results depend on the processing

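The count of EphB and ephrin-B probe sets past the adjusted threshold in limma was 0 under each alternative tried on probe sets. With a threshold of 0.1 it was 0 in the fit as reported, but with dim probe sets left out Ephb1 (adjusted p = 0.0639) and Efnb2 (0.0737 and 0.0952) lie under 0.1, as does Ephb1 with the intensity trend (0.0921). The count of nominal differences was 3 under each alternative on probe sets that kept both knockout arrays. Without knockout replicate 2, Efnb2 at 1449548_at was lower in the knockout, with a log2 fold change of -0.65. Of 141 values for single probe sets under 12 alternatives, 129 kept their sign and their side of the threshold and 12 changed sign, all of them log2 fold changes that were not called. The adjusted p of Ephb1 ranged from 0.0639 (dim probe sets left out) to 0.414 (without control replicate 2), and that of Efnb2 at its brightest probe set from 0.0737 to 0.454. The mean of a gene's probe sets is the 1 setting in which a member, Ephb1, passed (adjusted p = 0.0456). Ephb1 has a single probe set, so its own values were unchanged in that setting.

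With the replicate block, Efnb1 at 1418285_at gave 0.1548 and Efnb2 at 1449549_at gave 0.0505, and with array weights they gave 0.0158 and 0.0048. With each array left out in turn, log2 fold changes ran from -0.3631 to 0.2638 for Efnb1 at 1418285_at, from -0.0194 to 0.2442 at 1418286_a_at, from -0.1494 to 0.0505 for Efnb2 at 1449549_at, from -0.6482 to 0.2851 at 1449548_at, from -0.0835 to 0.4583 for Ephb3 and from -0.0664 to 0.3683 for Ephb6. The cause was not tested.

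The replicate numbers 1 and 2 occur in both genotypes, but the labels do not say what they share, and the deviations of same-numbered arrays correlated at 0.22. With the replicate block, which leaves control replicate 3 without weight, Sema6a gave -2.73 (adjusted p = 0.298), Ephb1 0.84 and Efnb2 0.86. With 1 array left out, Sema6a gave -2.73 to -2.60 with adjusted p-values of 0.0654 to 0.235. Where 1 knockout array remained, its spread was assumed to equal that of the controls. Levels under the median, as for Ephb4 and 2 Efnb2 probe sets, limit what can be seen there.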
